A study of Glycine max with 42 samples.

Results

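The genes described here are 200 genes of soybean (Glycine max) that were highest in the middle of the season in leaves of control plants. They were chosen from the Williams 82 table on group means of log2(normalised count + 1). A gene entered if its mean normalised count was 50 or more in controls at day 54 or day 64 after planting, which 19131 of 38177 genes met. The peak height was the mean of the day 54 and day 64 control groups minus the highest of the initial group and the controls at days 45 and 76, and the 200 genes with the largest peak height were kept. All 200 are also listed in the table of line T295H, which has 37403 genes.

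RNA came from trifoliate leaves, in 42 libraries that make up 14 groups of 3. The cultivar Williams 82 had an initial group at day 38, taken at flowering before any treatment group, and control and depodded groups at days 45, 54, 64 and 76. Depodded plants had their pods removed, so the limit on the sink is mechanical. Line T295H had an initial group at day 28, and control and sterile groups at days 35 and 63; the sink limit of the sterile plants is genetic, and the labels name neither the locus nor the kind of sterility. The labels do not say whether the 3 libraries of a group are separate plants, so p-values measure the spread between libraries only.

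A growing soybean leaf first feeds its own expansion and then exports sugars and amino acids to the pods. Seeds are the main sink of the plant once they fill, and the leaf later breaks down its proteins and hands on their nitrogen until it senesces. When pods are absent, soybean leaves are known to keep carbon and nitrogen in starch and in vegetative storage proteins. None of the gene IDs matched the reference table of gene names, so no member can be given a name or a role, no leaf marker could be checked, and the members are described by their IDs, levels and time courses. In leaf tissue, fewer cells of a type and less RNA per cell cannot be told apart.

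Depodded leaves at 2 time points carry conflicting labels. The libraries whose time point is given as day 64 have the number 5 in their titles, and controls with the number 5 are from day 76. The libraries whose time point is given as day 76 have the number 4, which controls carry at day 64. The groups are called labelled day 64 and labelled day 76 here, and the counts of members called in them are also given with the groups taken from the title number. In T295H, initial replicate 2 stood apart, with 41.3% of its counts in its 10 most abundant genes, against at most 17.8% in any other library. The recovered depth was 6663477 to 13166094 counts in the Williams 82 libraries, and 5471456 to 11877733 for T295H.

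In control leaves the members rose and fell as a block, which is how they were chosen and is described without a test. They held 1.39% to 1.91% of all normalised counts in the 6 control libraries of days 54 and 64. In the 9 libraries of the initial group and the controls at days 45 and 76 they held 0.168% to 0.531%. The median member level lay between 7.54 and 7.92 on the log2 scale in the mid-season libraries and between 4.85 and 5.93 in the other 9. For 150 of the 200, all 6 mid-season libraries were above all 9 others, which held for 4.76% of the 29208 genes tested. Peak heights ran from 3.80 to 1.37 (log2), and the first genes left out also had 1.37.

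The members differed in which mid-season control group had the higher mean. Day 54 was the higher group for 128 members and day 64 for 72. The difference between these groups was not tested, and for some members the means were nearly equal. The runner-up outside the peak was day 45 for 97 members, day 76 for 67 and the initial group for 36. For 26 members a mid-season group mean moved by more than 1.5 times when 1 library was left out.

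Choosing by control libraries inflates the peak in those same libraries, so the choice was repeated with 1 replicate of every group left out and the peak read in the left-out libraries. The 200 genes chosen then had a peak height above 0 in 169, 160 and 174 cases with replicate 1, 2 and 3 left out. Their median peak height was 1.21, 1.02 and 0.94 in the left-out libraries, against 1.66, 1.76 and 1.68 in the libraries that chose them. The median peak height was therefore also above 0, and lower, in libraries that had no part in the choice. In the left-out replicate each group is a single library and not a mean, so the highest reference value subtracted holds more noise. How much of the drop is due to this and how much to the choice was not tested. The share of all genes with a peak height above 0 in the left-out libraries was not computed. These lists shared 135, 142 and 121 genes with the main 200.

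The gene with the largest peak height, Glyma.10G021200, was a low gene whose mid-season values spread widely. Its normalised counts were 14.9, 35.0 and 57.1 in controls at day 54 and 69.3, 37.7 and 208.0 at day 64, with at most 3.97 in any of the other 9 libraries. Without replicate 3 its day 64 mean fell from 105.0 to 53.5. In depodded leaves it had 3.23, 9.81 and 11.8 at day 54 and 4.93, 6.71 and 7.36 in the libraries labelled day 76, below every mid-season control library.

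The second, Glyma.08G175200, was abundant. It had 1912, 3393 and 2001 normalised counts in controls at day 54 and 3521, 878.0 and 6956 at day 64, and 392.0, 617.0 and 26.8 at day 45. The day 64 replicates differ by a wide margin, and the day 45 replicates do too, yet no mid-season library overlaps with them. In depodded leaves it had 226.0, 228.0 and 138.0 at day 54, and 100, 425.0 and 447.0 in those labelled day 76. All of these lie under the lowest mid-season control library.

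**Figure D1:**
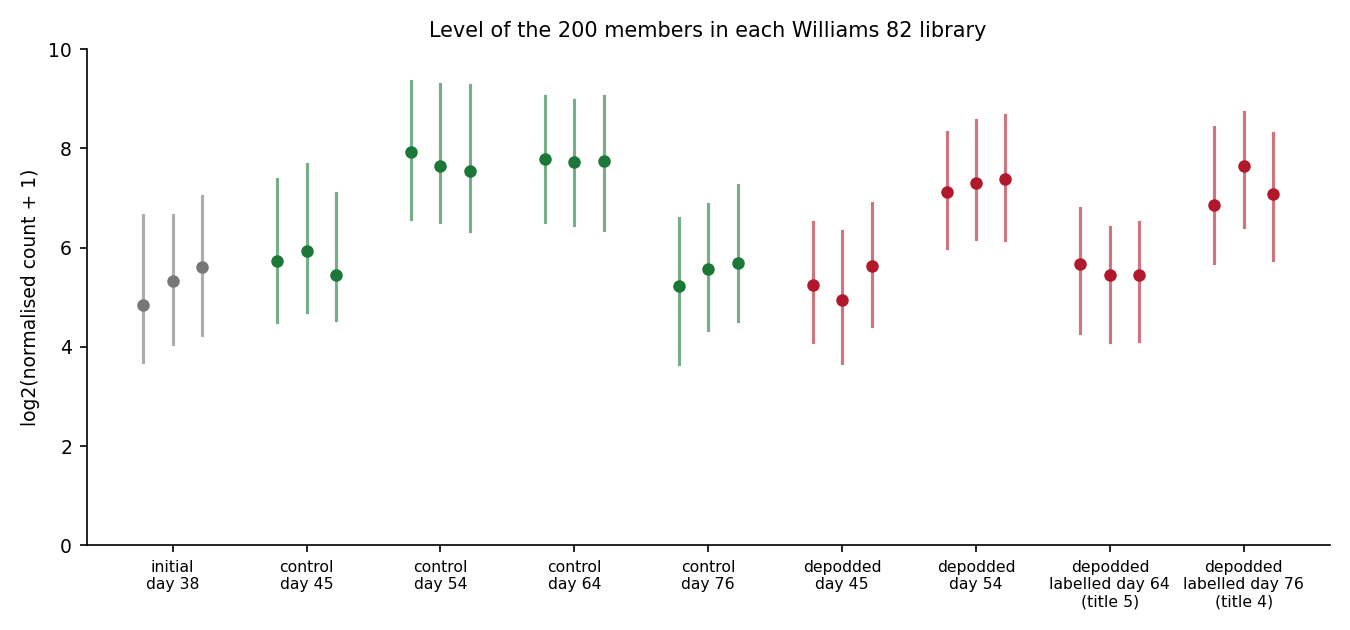
Level of the 200 members in each Williams 82 library. Points are the median member on the log2(normalised count + 1) scale, lines the middle 50% of members, and the 3 points of a group are its replicates (grey initial, green control, red depodded). Medians stand between 7.54 and 7.92 in the day 54 and day 64 controls that chose the genes, and in depodded leaves they are high at day 54 and in the libraries labelled day 76 (title number 4).

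Depodded leaves had no part in the choice, and there the members rose from day 45 to day 54. The median member level was 5.24, 4.94 and 5.63 in the 3 depodded libraries of day 45 and 7.13, 7.30 and 7.39 at day 54. Of the 200, 144 were higher at day 54 and 0 were lower (limma on all genes, adjusted p under 0.05), where 17.7% of all genes tested were higher and 18.7% lower. At an unadjusted p under 0.05 the counts were 152 and 0, and edgeR and DESeq2 also called 0 lower. The median change was 2.03 (log2) over the members and 0.03 over all genes.

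The largest such change was that of Glyma.15G151700. It had 6.88, 3.95 and 7.68 normalised counts in depodded leaves at day 45 and 211.0, 233.0 and 224.0 at day 54, so the groups are far apart and tight. Its log2 change was 5.0 (SE 0.35, adjusted p 6.66e-09 by limma), and the ratio of means was 36.1 with a counting interval of 18.1 to 84.4. Controls had 262.0, 299.0 and 238.0 at day 54 and 375.0, 337.0 and 449.0 at day 64, against 19.7, 26.9 and 53.6 at day 45. All depodded libraries were below all control libraries at both days, by a wide margin at day 45 and by a narrow one at day 54.

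Glyma.08G267500 was next, with 0, 3.95 and 5.12 normalised counts at day 45 and 85.5, 88.3 and 112.0 at day 54 in depodded leaves. The change was 4.94 (SE 0.78, adjusted p 5.20e-05 by limma). The ratio of 31.6 rests on 4 pairs of counts at day 45 and has a counting interval of 12.1 to 117.0. In the libraries labelled day 76 it had 88.7, 134.0 and 60.7, a change of 4.86 from day 45 (SE 0.78, adjusted p 6.35e-05), and in those labelled day 64 it had 16.6, 7.41 and 4.90. With the groups by title number, which puts the latter in the last group, its adjusted p there was 0.152.

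The libraries labelled day 64 and those labelled day 76 gave opposite pictures of what followed. In those labelled day 64 the median member level was back at 5.67, 5.45 and 5.44. Against depodded day 45, 14 members were higher and 9 lower, with a median change of 0.10, where 9.67% of all genes were higher and 11.3% lower. In those labelled day 76 the median level was 6.87, 7.65 and 7.08, and 137 members were higher than at day 45 and 0 lower, with a median change of 1.86. By title number the results of these groups change places. Of all genes, 17.6% were higher and 19.0% lower. At an unadjusted p under 0.05, 151 were higher and 0 lower, and edgeR and DESeq2 called 0 lower. These comparisons share the day 45 libraries with the one of day 54.

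Set directly against each other, 124 members were higher in the libraries labelled day 76 than in those labelled day 64 and 0 were lower, with a median difference of 1.87. At an unadjusted p under 0.05 the counts were 146 and 0, with 0 lower by edgeR and DESeq2. Over all genes, 13.1% were higher and 14.5% lower. The largest difference was that of Glyma.07G011900, with 23.0, 380.0 and 248.0 normalised counts in the libraries labelled day 76 and 11.1, 0 and 1.63 in those labelled day 64. The groups do not overlap, though replicate 1 of the former lies near the latter. The log2 difference was 5.38 (SE 1.21, adjusted p 0.0021 by limma), and the mean of the former is 314.0 without replicate 1 and 136.0 without replicate 2.

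Glyma.03G032400 followed, with 1.64, 277.0 and 206.0 in the libraries labelled day 76 and 0, 0 and 1.63 in those labelled day 64. Replicate 1 of the former and replicate 3 of the latter each hold a single pair of counts, so those libraries cannot be told apart. The difference of 5.27 (SE 1.68, adjusted p 0.0227 by limma) lost its call without labelled day 76 replicate 2 or 3 and without labelled day 64 replicate 1 or 2, with adjusted p values of 0.125, 0.1, 0.0593 and 0.0678.

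**Figure D2:**
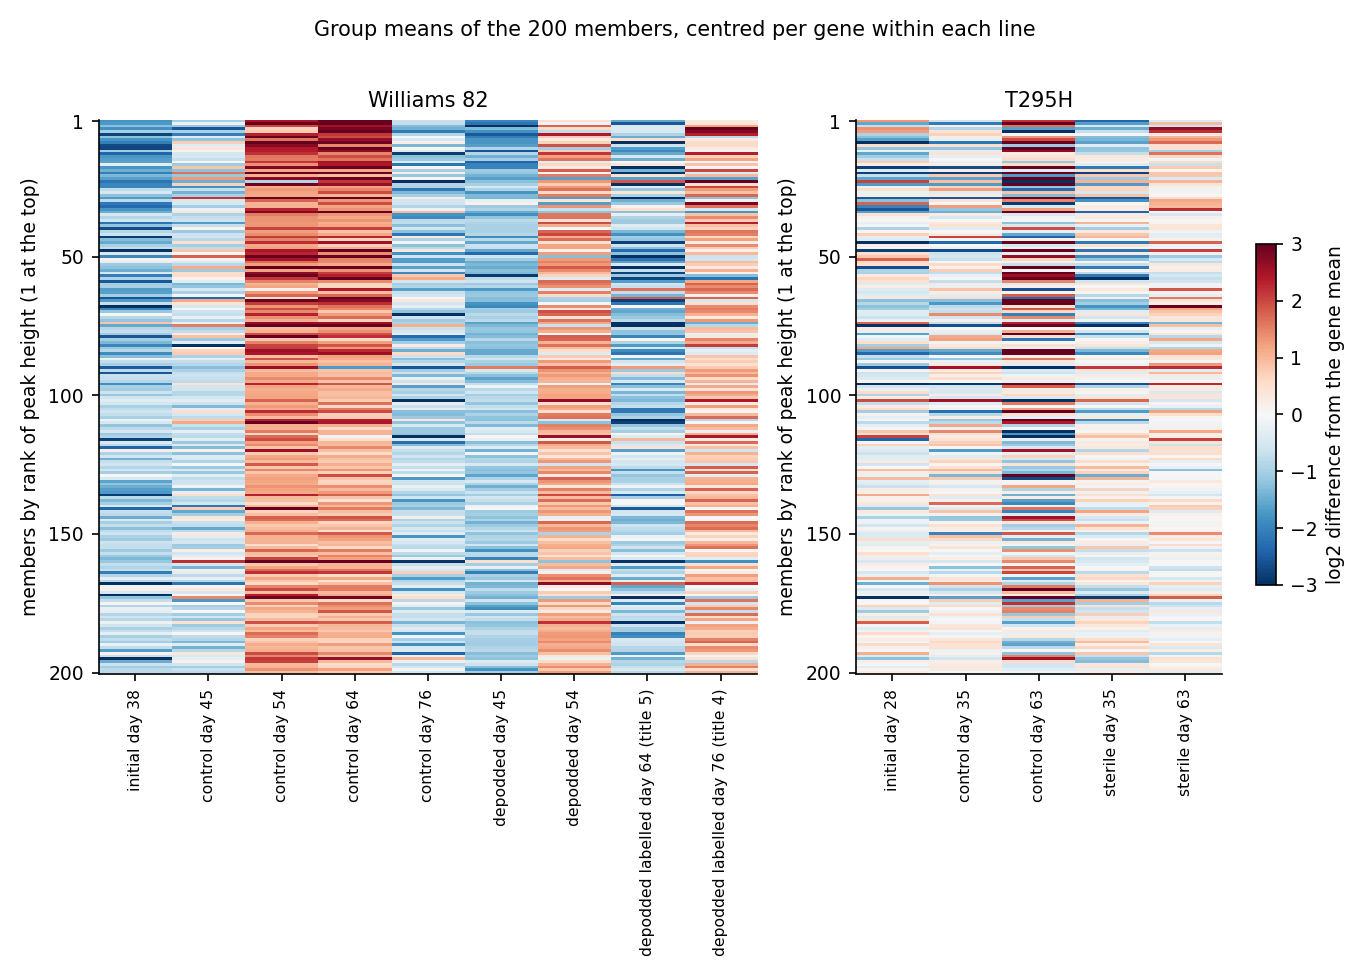
Group means of the 200 members, 1 row per gene in order of peak height, with the gene's own mean over the groups of its line taken away (log2; red above, blue below, ends at 3). The day 54 and day 64 control columns are red by the choice of genes; the depodded columns of day 54 and labelled day 76 are red for most rows, and the T295H columns show no common direction.

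The time course within depodded leaves can be read with either label. By the time point labels, the contrast matching the rule (days 54 and 64 against days 45 and 76) was called higher for 7 members and lower for 0, with a median of 0.09, where 1.76% of all genes were higher and 3.13% lower. At an unadjusted p under 0.05 it was 27 and 4, DESeq2 called 11 higher and 4 lower, and edgeR 8 and 0. The count of 7 fell to 3 without depodded day 54 replicate 3 or labelled day 76 replicate 3. By the title numbers the same contrast was called higher for 162 members and lower for 0, with a median of 1.97, where 22.3% of all genes were higher and 22.9% lower. The labels do not settle which is right, and no sample was moved for this.

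The pattern can also be counted without a model. All 6 depodded libraries of day 54 and labelled day 76 were above all 6 of day 45 and labelled day 64 for 123 members, or 61.5%, which was so for 9.60% of the genes tested. This is the arrangement of the title numbers. In the arrangement of the time point labels, with day 54 and labelled day 64 above day 45 and labelled day 76, 0 members were separated, against 0.185% of the genes tested. Day 54 was the highest depodded group for 123 members and labelled day 76 for 69. The 1 gene with no count in any of the 12 depodded libraries was Glyma.06G298300. Its control means were 20.6 at day 54 and 164.2 at day 64, and its mid-season libraries overlapped the other 9. At least 1 of these means moved by more than 1.5 times when 1 library was left out. The gene also had no count in the Williams 82 initial group, or in T295H initial leaves and controls of day 35.

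The share of members called in depodded leaves varied with the shape of their control peak. Of the 150 whose mid-season control libraries stood above the other 9, 132 were higher in depodded leaves at day 54 than at day 45, with a median change of 2.22. Of the 50 whose control libraries overlapped, 12 were higher, with a median of 1.06. The difference between these sets was not tested. Members whose control level at day 45 was the runner-up had a median change of 1.77, with 54 of 97 called, and those with the initial group as the runner-up had 2.28, with 33 of 36 called. The fit behind these calls took its spread also from the control and initial libraries that made these splits. The called counts are therefore not independent of the splits, and how much they owe to this was not tested. The median changes use depodded libraries only. No share of all genes under the same splits is given here.

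**Figure D3:**
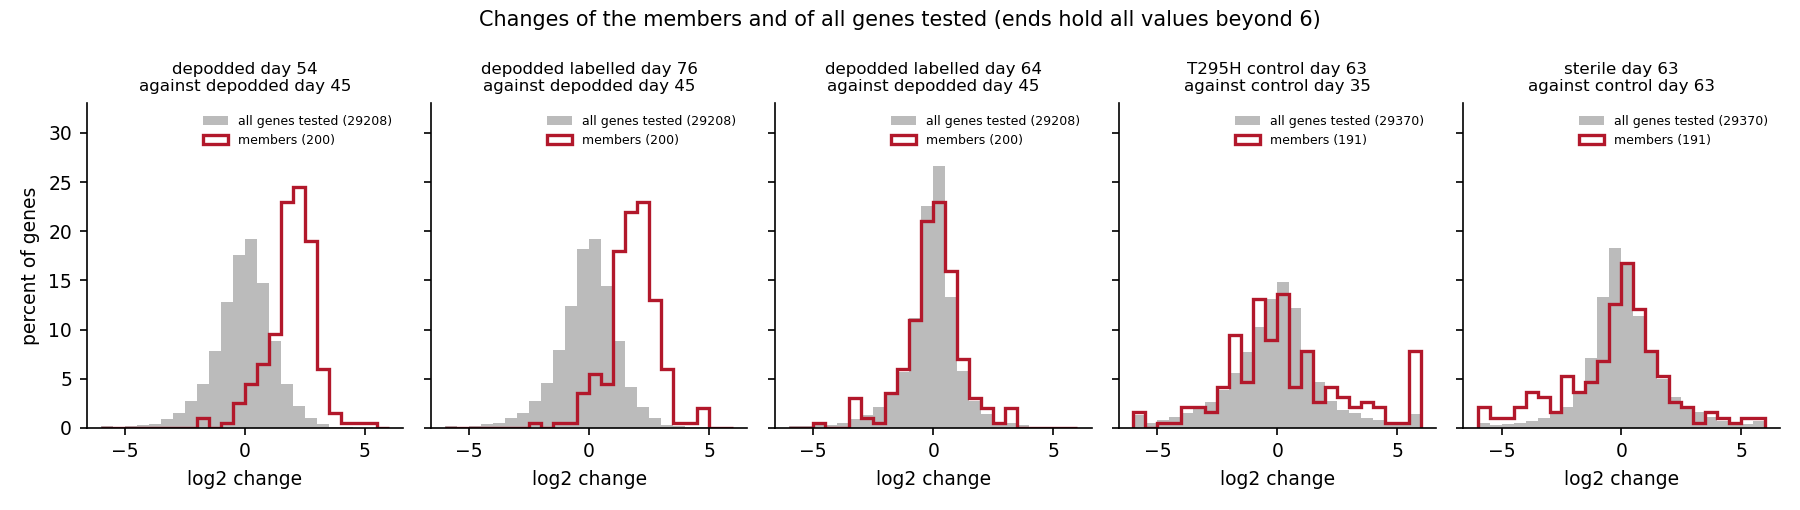
Distribution of log2 changes of the members (red outline) and of all genes tested (grey), in percent of each, for 3 comparisons within depodded leaves and 2 within T295H. The members are shifted to the right in the first 2 panels, with medians of 2.03 and 1.86, and are centred near 0 in the other 3, with heavier tails in the T295H panels.

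Among the few members that changed in the libraries labelled day 64, Glyma.12G215000 stayed high. Its normalised counts in depodded leaves were 2.29, 13.8 and 23.0 at day 45, 197.0, 191.0 and 155.0 at day 54, 136.0, 57.4 and 118.0 in the libraries labelled day 64, and 135.0, 201.0 and 86.4 in those labelled day 76. All 9 later libraries stand above all 3 of day 45. The change at labelled day 64 was 3.22 (SE 0.75, adjusted p 0.00353 by limma), and 3.67 by title number. In controls it had 52.1, 55.6 and 25.4 at day 54 and 10.4, 30.5 and 13.5 at day 76.

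Glyma.17G165200 was also higher there, with 71.9, 48.1 and 315.0 against 4.59, 7.89 and 33.3 at day 45. Its change of 3.13 (SE 1.08, adjusted p 0.0424 by limma) lost its call without day 45 replicate 1 or 2 and without labelled day 64 replicate 1 or 3, at adjusted p values of 0.0666 to 0.200. By title number the change was 3.03.

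Of those that fell, the abundant Glyma.02G292800 had 3745, 2232 and 3472 normalised counts in depodded leaves at day 45 and 1518, 1096 and 1035 in the libraries labelled day 64, a change of -1.36 (SE 0.30, adjusted p 0.00236 by limma). The groups do not overlap. At day 54 it had 13574, 13198 and 9510, and in the libraries labelled day 76 it had 7497, 8450 and 9863, so with the groups by title number the change turned to 1.48. Controls of this gene were at 893.0, 1809 and 1789 at day 76 and at 14720, 8137 and 9077 at day 64. Glyma.19G212800 also fell, from 73.4, 268.0 and 81.9 to 25.8, 31.5 and 8.16, by -2.57 (SE 0.79, adjusted p 0.0229 by limma). That call was lost without day 45 replicate 2 (adjusted p 0.111), without labelled day 64 replicate 3 (0.126) and with the groups by title number (0.962).

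Beside Glyma.08G267500, the largest called rise in the libraries labelled day 76 was that of Glyma.17G119000. It had 1514, 94.0 and 51.5 normalised counts there and 0, 5.92 and 46.1 at day 45, and replicate 1 sets the mean of 553.0, which is 72.7 without it. The change of 4.83 (SE 1.64, adjusted p 0.0248 by limma) lost its call without labelled day 76 replicate 1 (0.154), without day 45 replicate 1 (0.141) or 2 (0.0537), in a fit of the compared groups alone (0.0576) and by title number (0.747).

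Set beside controls, depodded leaves had lower levels of some members and not of others, and since the rule used these controls this is a description. The median difference between depodded and control group means was -0.19 at day 54, with 117 members lower and 83 higher in depodded leaves, and the middle 50% ran from -1.47 to 0.24. At day 45 it was -0.43, with 153 lower. The libraries labelled day 76 (title number 4) were at -0.40 against controls of day 64, with 123 lower, and those labelled day 64 (title number 5) were at -2.05 against the same controls, with 197 lower. Against controls of day 76, which share the title number 5, the libraries labelled day 64 were at -0.06, with 108 lower and 91 higher. The libraries labelled day 76 were at 1.67 against these controls, which share their time point label, with 172 higher and 28 lower.

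Read in control libraries left out of the choice, depodded minus control at day 54 had a median of -0.42 and -0.70 with replicates 1 and 2 left out, and of 0.26 with replicate 3 left out. The median difference at day 54 therefore had no steady sign over these choices. Each choice had its own 200 genes and a single control library per group, so genes and library change together. At day 45 the median difference was -0.76, -1.07 and -0.47, with 154, 168 and 145 of 200 lower. For the libraries labelled day 64 against controls of day 64 it was -2.38, -2.34 and -1.49. For the match by title number, the libraries labelled day 76 against controls of day 64, it was -0.81, -0.65 and 0.23, with 143, 144 and 82 lower and no steady sign.

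Line T295H gives a second look at the members in plants that the rule did not use, at days 28, 35 and 63, none of which is a day of the Williams 82 course. As a set they did not rise or fall together there. Of the 200, 191 passed the filter on low values (a table mean of 10 or more) and were tested. The median member level was 6.63, 6.17 and 6.69 in the initial libraries, 6.65, 6.67 and 6.66 in controls at day 35, and 6.84, 7.12 and 7.0 at day 63. Levels were not compared between the tables, which were normalised separately.

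From day 28 to day 35, 11 members were higher and 9 lower in T295H, with a median change of 0.13, where 5.41% of all genes were higher and 6.19% lower. The shares are near those of all genes. The count of 20 moved to 50 without initial replicate 3 and to between 7 and 10 without any other single library of the comparison, and it was 4 in a fit of only these groups. Among called members with a mean of 50 or more at the higher day and no overlap between the groups, the largest rises were those of Glyma.18G246100, by 5.11 (SE 1.16, adjusted p 0.0124 by limma), and Glyma.12G215000, by 2.81 (SE 0.52, adjusted p 0.00485). The first had 0, 0 and 30.1 normalised counts at day 28 and 88.3, 71.9 and 197.0 at day 35, and lost its call without initial replicate 1 or 2 or control day 35 replicate 3 and with edgeR, at adjusted p values of 0.0565 to 0.105. The second had 9.94, 19.3 and 71.0, then 216.0, 107.0 and 233.0, and its adjusted p was 0.0793 in a fit of these groups alone.

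By the same limits, the falls over this interval were led by Glyma.17G242600. It had 107.0, 200 and 123.0 normalised counts at day 28 and 12.3, 36.8 and 32.7 at day 35, a change of -2.43 (SE 0.54, adjusted p 0.0109 by limma), and 0.0536 without control day 35 replicate 1. Glyma.20G208700 fell by 1.80 (SE 0.52, adjusted p 0.0362 by limma) from 413.0, 1075 and 430.0 to 134.0, 181.0 and 184.0, and it lost its call without initial replicate 1 or 2 or any library of day 35. Its adjusted p values were then 0.0552 to 0.152.

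**Figure D4:**
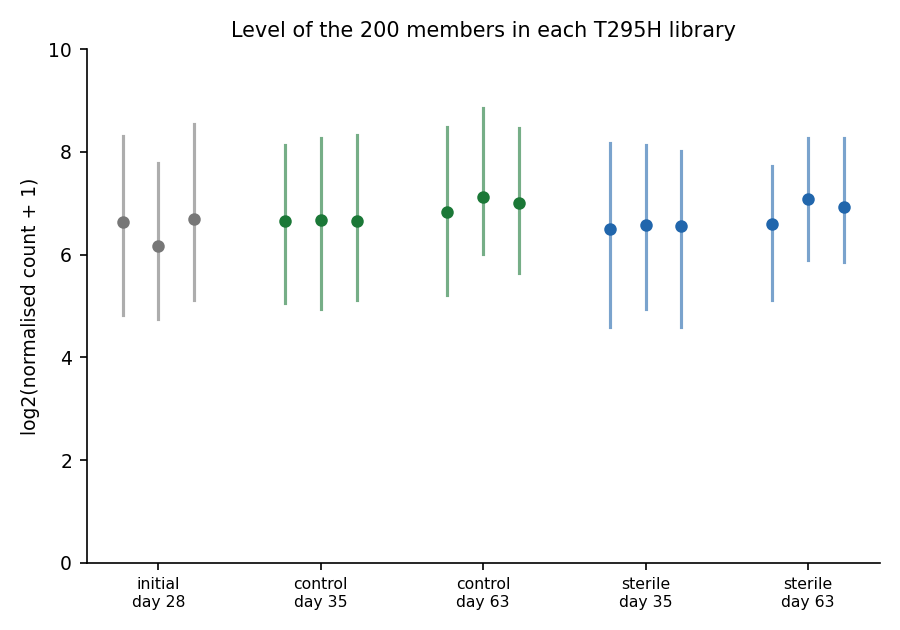
Level of the 200 members in each T295H library, drawn as for Williams 82 (points for the median member, lines for the middle 50%, log2 scale; grey initial, green control, blue sterile). Library medians run from 6.17, in the initial replicate 2 that stood apart, to 7.12, and all groups overlap widely.

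From day 35 to day 63 in T295H controls, 33.5% of the members tested were called higher and 32.5% lower. These shares are near those of all genes. There were 64 higher and 62 lower, with a median of 0.07 and a middle 50% of -1.19 to 1.70, where 29.3% of all genes were higher and 31.1% lower. The members' share of the counts went from 0.812%, 0.893% and 0.862% to 1.35%, 1.6% and 1.23%. The members that rose included genes with next to no counts at day 35. Glyma.01G135500 had 2.05, 0 and 0 normalised counts at day 35 and 2578, 3219 and 1861 at day 63, a log2 change of 10.75 (SE 1.31, adjusted p 4.85e-06 by limma). Its ratio of 3727 rests on 1 pair of counts, with a counting interval of 669.0 to 147243.

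Glyma.03G032400 had no count in controls at day 35 and 1131, 1989 and 1044 normalised counts at day 63. It was at least 262.0-fold higher, computed against a floor of 6 counts per library (adjusted p 1.1e-06 by limma). Glyma.17G069200 moved the other way, from 419.0, 550.0 and 476.0 to 0, 3.36 and 0 (log2 change -8.20, SE 0.65, adjusted p 4.91e-08 by limma). Glyma.18G246100 went from 88.3, 71.9 and 197.0 to no count in any of the 3 libraries, at least 21.8-fold lower (adjusted p 1.30e-04 by limma). In Williams 82 controls Glyma.18G246100 had 203.0, 188.0 and 5.07 at day 54 and 0, 31.7 and 0 at day 64, so its peak rests on 2 libraries of day 54.

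At day 35 the sterile leaves hardly differed from their controls in the members. There were 0 higher and 1 lower, where 0.0953% of all genes were higher and 0.0817% lower. The 1 gene was Glyma.02G153100, named after its value was seen, at -3.61 (SE 0.64, adjusted p 0.0337 by limma), and no member was called when any 1 library was left out. At an unadjusted p under 0.05, 9 were higher and 19 lower; edgeR called 0, DESeq2 called 1 higher and 4 lower, and a fit of these groups alone called 4 and 9.

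At day 63, 58 members were higher and 56 lower in sterile than in control leaves, with a median of 0.12 and a range from -7.21 to 6.5. Over all genes, 26.6% were higher and 23.6% lower. The lowest was Glyma.01G135500, with 0, 287.0 and 15.5 normalised counts in sterile leaves against 2578, 3219 and 1861 in controls (log2 difference -7.21, SE 1.31, adjusted p 3.43e-04 by limma, 0.164 by DESeq2). Sterile replicate 2 sets its mean of 101, which is 7.73 without it. Glyma.03G032400 had 3.22, 171.0 and 1.41 against 1131, 1989 and 1044 (-6.79, SE 1.1, adjusted p 1.23e-04 by limma, 0.110 by DESeq2), again with replicate 2 far above the others. For both genes every sterile library was under every control library.

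The highest was Glyma.18G246100, with 40.3, 29.9 and 579.0 normalised counts in sterile leaves and none in controls, at least 39.5-fold higher (adjusted p 2.90e-04 by limma). Its sterile mean is 35.1 without replicate 3. Glyma.05G011200 had 2134, 4137 and 5675 in sterile leaves and 34.5, 114.0 and 43.9 in controls, a difference of 6.02 (SE 0.57, adjusted p 7.17e-07 by limma). Its levels in Williams 82 vary widely within groups: in controls at day 64 it had 1592, 12425 and 141.0, and in the libraries labelled day 76 it had 13097, 2615 and 1570.

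Within sterile leaves, 39 members were higher and 25 lower at day 63 than at day 35, with a median of 0.18, where 11.6% of all genes were higher and 13.8% lower. The 64 calls fell to 36 without sterile day 35 replicate 3, to 42 without sterile day 35 replicate 1 and to 38 without sterile day 63 replicate 2. Glyma.19G070000 rose from 3.58, 9.47 and 1.83 normalised counts to 250.0, 105.0 and 224.0 (log2 change 5.14, SE 0.94, adjusted p 0.00116 by limma). Glyma.12G182500 rose from 1.79, 1.89 and 0 to 6.45, 332.0 and 81.5 (4.88, SE 1.0, adjusted p 0.00265), and replicate 2 sets the later mean of 140.0, which is 44.0 without it. In T295H controls of day 63 it had 1255, 1627 and 1343.

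Glyma.17G069200 fell within sterile leaves too, from 265.0, 269.0 and 305.0 to 16.1, 84.7 and 143.0 (-2.23, SE 0.65, adjusted p 0.0199 by limma). The call was lost without sterile day 35 replicate 1 or 3 or sterile day 63 replicate 1, at adjusted p values of 0.0510, 0.0639 and 0.0930. Glyma.02G250800 fell from 602.0, 504.0 and 695.0 to 127.0, 299.0 and 166.0 (-1.68, SE 0.29, adjusted p 8.45e-04 by limma), with no overlap between the groups.

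Grouped by their T295H calls, the members had different medians in Williams 82, in libraries of another table; this was not tested. The 56 members lower in sterile leaves at day 63 were mostly lower in depodded than in control leaves. Their median difference was -1.74 at day 54, with 51 of 56 lower, and -2.03 between the libraries labelled day 76 and controls of day 64, with 52 lower. It was already -1.54 at day 45, with 53 lower. The 58 members higher in sterile leaves had medians of 0.23, 0.38 and -0.11 in the same order, and the 77 without a call had 0.02, -0.13 and -0.33.

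The same split was made over all genes tested in both tables. The 6643 genes lower in sterile leaves at day 63 had medians of -0.31 at day 54, -0.5 between the libraries labelled day 76 and controls of day 64, and -0.02 at day 45. The 7435 higher ones had 0.36, 0.5 and -0.02 in the same order. Of the 6643, 77.0%, 80.7% and 52.1% were lower in depodded than in control leaves, and of the 7435, 1639, 1648 and 3789 genes were. Being mostly lower at day 54 and in the libraries labelled day 76 was therefore not particular to the members. At day 54 the members' median was farther from 0 than that of all genes for the lower set, and nearer to 0 for the higher set. Over the 191 members, the difference at day 54 and the sterile difference at day 63 had a Pearson r of 0.65 and a Spearman rho of 0.61. The change from day 45 to day 54 within depodded leaves, which uses no control library, had 0.18 and 0.23 with the same sterile difference. These correlations are across genes, which are not independent replicates, and the former uses control libraries that chose the members. The correlations over all genes were not computed.

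Members of each of these kinds rose within depodded leaves. From day 45 to day 54 the 56 had a median change of 1.72, with 30 called higher and 0 lower, the 58 had 2.22, with 44 and 0, and the 77 had 2.21, with 68 and 0. Over all genes tested in both tables, the median of this change was -0.25 for those lower in sterile leaves at day 63. It was 0.34 for those higher and 0.03 for those without a call. In the same order, 59.1%, 37.0% and 48.7% of these genes had a negative change. No called counts are given for these sets of all genes. In the libraries labelled day 64 the 56 had a median of -0.33 against day 45 and the 58 had 0.49, and in those labelled day 76 the medians were 1.35 and 2.35.

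**Figure D5:**
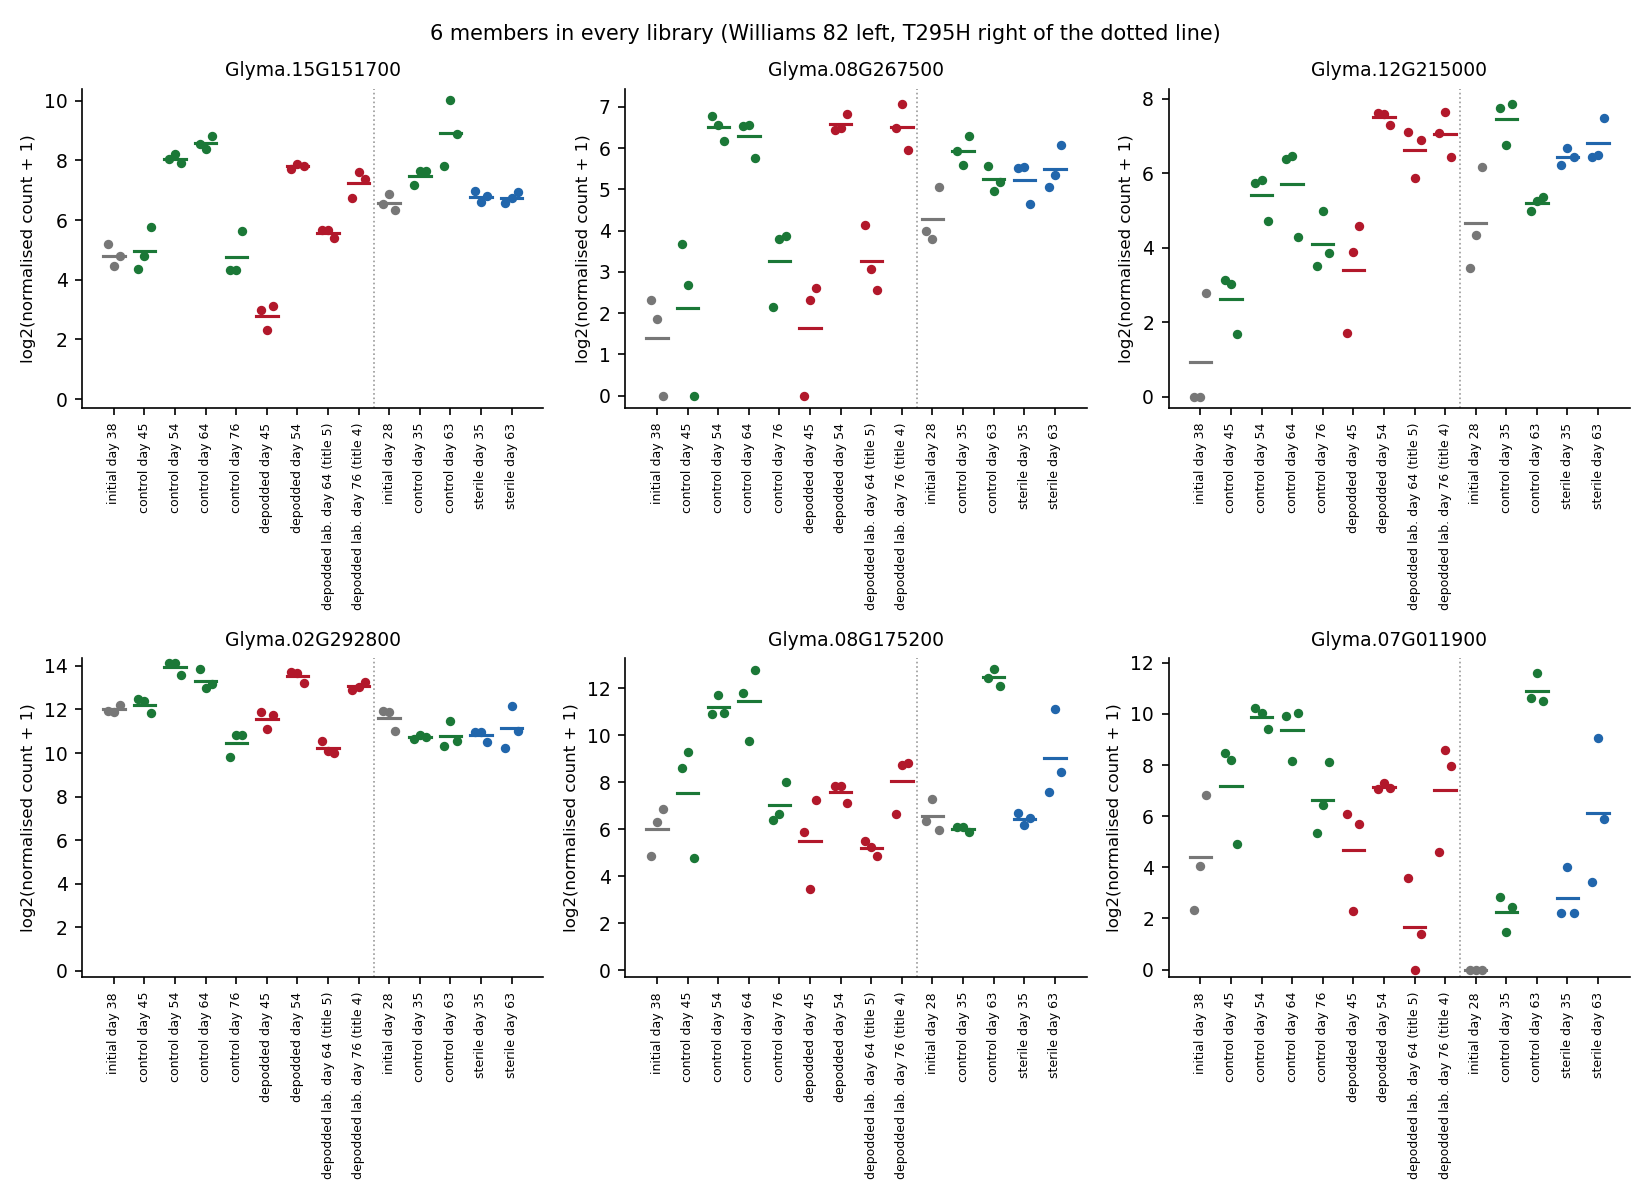
Normalised counts of 6 members in every library (log2(normalised count + 1); points are libraries and bars group means; grey initial, green control, red depodded, blue sterile), with Williams 82 to the left and T295H to the right of the dotted line. Glyma.15G151700 and Glyma.08G267500 stand near their control levels in depodded leaves at day 54, and Glyma.08G175200 and Glyma.07G011900 are lower in depodded and in sterile leaves than in the controls of day 54 and day 63.

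Glyma.07G011900 shows the kind with low depodded levels in full. It had 1191, 1041 and 686.0 normalised counts in controls at day 54 and 132.0, 157.0 and 136.0 in depodded leaves. At day 63 in T295H it had 1579, 3097 and 1467 in controls and 9.67, 531.0 and 57.6 in sterile leaves, and at day 35 no library was above 15.2. The neighbouring ID Glyma.07G011800 is also a member; IDs of soybean genes are numbered along the chromosome. Counting each member with the next member along the same chromosome, 12 such pairs had ID numbers at most 1000 apart; the share over all genes was not computed.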

How the data were processed

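Leaf RNA-seq of 42 libraries was deposited by the authors as 1 table of normalised counts (a signal) per line; Bowtie2 and DESeq2 are listed, with no role, in the submitters' processing notes. The build, annotation, counter and strand use were not given here, so paralogs and overlapping genes may share reads. All values were whole multiples of 1 step per library within 0.01 counts (100%), and 98.8% to 99.2% of recovered counts were even; floors (3 pairs, 6 counts per library) and 95% exact Clopper-Pearson intervals were therefore computed on pairs and cover counting error only. Replicates all differed by more than sampling noise (lowest chi-square per degree of freedom 3.09). Of 39557 IDs, 0 matched the reference table; T295H IDs were matched without their ending.

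The main test was limma 3.58.1 (eBayes with trend, R 4.3.3) on log2(normalised count + 1), with all groups of a table in 1 fit, genes with a table mean of 10 or more (29208 and 29370), two-sided, Benjamini-Hochberg adjustment over all genes and a threshold of 0.05. Fold changes on this scale understate the change of low genes. Alternatives included edgeR 4.0.16 and DESeq2 1.42.0 on recovered reads, other pseudocounts and filters, TMM scaling, a replicate block, left-out libraries and title numbers for the depodded groups. The limma test was also run on simulated counts with the same spread setting for every gene. Such counts are simpler than these data, so that run does not vouch for the calls given here. Named genes are at most 2 per comparison and direction, with the largest called change, groups that do not overlap and a mean of 50 or more where the gene is higher, and the first 2 by peak height; Glyma.06G298300, Glyma.07G011800 and Glyma.02G153100 were named after their values were seen. The members, lists and tests were chosen with earlier results of these data known. The comparison of the libraries labelled day 76 with those labelled day 64 was added after seeing the data.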

Additional observations from a re-analysis of the deposited data

Results flagged for a closer look

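The change from depodded day 45 differed between the libraries labelled day 76 and those labelled day 64 for 124 of the 200 members by limma, all of them higher in the libraries labelled day 76. Over all genes, 13.1% were higher and 14.5% lower. The comparison was added after seeing the data. What set this result apart is a tested difference, under the same contrast, between depodded groups whose time point labels and title numbers conflict. Exchanging the labels turns the sign and leaves the count as it is. No group has more than 3 libraries, so single libraries were not screened as outliers within groups.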

How the results depend on the processing

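The rises within depodded leaves kept their direction under every alternative by time point label, with 117 to 151 members called at day 54 (144 in the main test; 131 to 143 with 1 library left out), 115 to 147 in the libraries labelled day 76 (137; 118 to 139) and 102 to 147 between the late depodded groups (124; 102 to 125). With the groups by title number, the count for labelled day 64 went from 23 to 137, that for labelled day 76 from 137 to 23, and the mid-season contrast from 7 to 162; Glyma.02G292800 turned to 1.48. DESeq2 on recovered reads called 38 at labelled day 64, 15 in the mid-season contrast and 5 between sterile and control leaves at day 35. A fit of only the compared groups called 13 at labelled day 64, 4 between T295H days 28 and 35, and 13 between sterile and control leaves at day 35. That last count was 1 in the main test and 0 with a pseudocount of 5, with a mean of 50 or more, with edgeR on recovered reads, and without any 1 library (0 to 0). The cause of these shifts was not tested.

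With 1 library left out, calls ran from 12 to 29 at labelled day 64, 3 to 7 in the mid-season contrast, 7 to 50 between T295H days 28 and 35, 115 to 121 between control days 35 and 63, 99 to 109 between sterile and control leaves at day 63, and 36 to 55 within sterile leaves. The rule shared 121 to 188 of its 200 genes with itself when libraries were left out and 136 to 186 under other pseudocounts, levels or medians. With the replicate number as a block the counts were 143, 21, 137 and 127 in the depodded comparisons and 6 in the mid-season contrast. In T295H they were 22, 126, 1, 114 and 65. Deviations of same-numbered libraries from their group means had correlations from -0.163 to 0.148. All pairs were above 0 only for sterile day 63 against control day 63 (0.018, 0.1 and 0.148) and against sterile day 35 (0.008, 0.032 and 0.101). Since these values are small, the numbers were not taken to pair samples.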
